A study of Mus musculus with 6 samples.

Results

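The numbered Zfp genes are mouse genes whose symbol is Zfp followed by a number, a naming shared by a large set of zinc-finger proteins. They were taken from a table of 25899 gene symbols by that pattern and by a count of at least 600 summed over its 6 libraries. Of 365 such symbols, 3 were left out by name (Zfp36, Zfp42 and Zfp281), 118 fell below the total and 244 remained. The members were thus chosen by their symbol and selected on the summed count, so their depth is a description. That count adds treated and untreated libraries together, but the untreated libraries hold more counts and weigh more in it. The limit also moves the direction of the set. The median log2 fold change of treated over untreated was -0.007 at this total, -0.087 at a total of 300 and 0.046 at 1200. The 3 genes just inside were Zfp991 with 608 counts and Zfp248 and Zfp773 with 619 each, and the 3 just outside were Zfp442 with 597, Zfp869 with 568 and Zfp109 with 557. Each of the 244 passed the filter on low counts, and none had fewer than 31 counts in any library.

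Newly made RNA was captured and sequenced from mouse embryonic stem cells (line E14tg2a, background 129SV), all of which stably carried a cRAF-ErT2 cassette. The cassette encodes a RAF kinase joined to a receptor domain that binds 4-hydroxytamoxifen (4OHT), and the drug switches on ERK signalling through it. There were 3 libraries from clones a, b and c given 250 nM 4OHT for 2 h, and 3 libraries from the same clones left untreated. All cells were grown in serum with LIF and the GSK3 inhibitor CHIR99021 at 2 µM. Serum with LIF and the FGF receptor inhibitor PD173074 at 250 nM replaced this medium for the 24 h before treatment. All received 5 mM ethynyl uridine, a nucleoside built into RNA as it is made, for the final 15 min. Which promoter drives the cassette is not given in the sources used here. Cells without the cassette that received 4OHT, and a library named as a solvent control, are not among the samples, so ERK activity and other effects of the drug or its handling cannot be told apart.

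Most mammalian zinc-finger proteins of this kind carry tandem C2H2 fingers, short folds around a zinc ion that read DNA bases. Many also carry a KRAB box, a domain that recruits the scaffold TRIM28 and with it the histone methyltransferase SETDB1, heterochromatin proteins and the NuRD complex, and so silences transposons, imprinted regions and some genes. KRAB zinc-finger genes multiplied by local duplication and lie in clusters, and embryonic stem cells are a cell type in which their silencing of retroelements is well known. Others in the set have no KRAB box and act as promoter factors, chromatin partners or RNA-binding and ribosome-quality proteins.

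Library totals were 7295334 to 9431819 counts in treated clones and 9745747 to 12168380 in untreated clones. Levels below are counts scaled to library depth by TMM (CPM), given as mean ± SD with n = 3 libraries a group, and changes are log2 fold changes of 4OHT over untreated ± SE. A gene is called when its adjusted p is below 0.05 in edgeR's quasi-likelihood test, with Benjamini-Hochberg adjustment over all 13869 genes tested. The SE was derived from that test, as the absolute change divided by the square root of its F statistic. Scaling by library size in place of TMM moved the median of all tested genes by -0.20, so directions that this scaling turns are named. All 10 pluripotent-cell markers were read in every library, with summed levels of 1345 to 1567 CPM in treated clones and 2318 to 2398 CPM in untreated clones (3 called higher and 5 lower, or 2 and 6 with library-size scaling). Of 11 fibroblast and feeder markers, 5 had enough counts to test (2 called higher, 2 lower), Postn and Lum had no count in any library, and the summed level was 22.8 to 27.5 CPM in treated clones against 5.54 to 8.82 CPM in untreated clones. Twist1, a transcription factor of mesenchymal cells, made up most of that sum in treated clones, with 15.8, 19.1 and 19.4 CPM in treated clones a, b and c, against 0.561, 0.152 and 0.784 CPM in untreated clones, and the collagen gene Col1a1 was the other marker called higher, while Col5a2 and Pdgfrb were called lower. The part of these marker changes in the Zfp results was not tested. In RNA from a whole culture, fewer cells making a transcript and less transcript per cell cannot be told apart. The spans of 108 of the 244 genes overlap another annotated gene, and because strand use in counting is not given in the sources used here, their reads cannot be told apart. Of the genes described below these are Zfp65, Zfp91, Zfp131, Zfp143, Zfp248, Zfp296, Zfp326, Zfp335, Zfp341, Zfp367, Zfp384, Zfp398, Zfp428, Zfp445, Zfp459, Zfp516, Zfp523, Zfp536, Zfp553, Zfp592, Zfp597, Zfp608, Zfp638, Zfp651, Zfp704, Zfp738, Zfp777, Zfp799, Zfp809, Zfp870, Zfp956, Zfp988 and Zfp991.

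After 2 h of 4OHT, 61 of the 244 numbered Zfp genes were called higher and 81 lower, and 102 were not called. Over all genes tested, 28.5% were called higher and 28.6% lower, 57.1% in all. The share of Zfp genes called in either direction is close to that background. Their split by direction leaned lower than in the 9485 tested genes that reach the same total. Of those 9485, 34.4% were called higher and 27.6% lower, with a median change of 0.06. Higher calls made up 55.5% of their calls and 43.0% of the Zfp calls, a difference without a test. The median change of the Zfp genes was -0.01, with 117 above 0 and 127 below. Scaled by library size, 36 were called higher and 111 lower (17.4% and 41.0% of all tested genes), which takes the share of higher calls among called Zfp genes to 24.5%, against 43.0% with TMM. Every call had the same sign in clones a, b and c. Taken without a test, the 3 treated libraries lay entirely above the 3 untreated ones for 77 Zfp genes and entirely below for 83, where 31.4% and 31.9% of all tested genes did so.

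In size, 3 called Zfp genes rose by a log2 fold change of at least 1 and 13 fell by as much, beside 6.83% and 9.55% of all tested genes. The SD of the changes was 0.53 over the Zfp genes and 0.75 over all tested genes that also reach the total of 600. Together the 244 genes took 1.37% to 1.46% of each treated library's counts and 1.49% to 1.61% of each untreated library's. Scaled by TMM, these shares turned to 1.47% to 1.57% in treated clones and 1.42% to 1.49% in untreated clones, ranges that overlap. The clone letters pair the libraries, and with clone as a block the calls were 79 higher and 91 lower, with 28 calls gained and none lost, where 67.4% of all tested genes were called. DESeq2 with the same block gave 61 higher and 77 lower, with 5 calls gained and 9 lost.

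A KRAB A-box, matched by a profile in the encoded protein, split the set into 147 genes with a match and 97 without. Of the 147 with a match, 24 were called higher and 58 lower, with a median change of -0.11. Of the 97 without, 37 were called higher and 23 lower, with a median of 0.13. The medians within clones a, b and c were -0.09, -0.10 and -0.17 for genes with a KRAB match, and 0.10, 0.14 and 0.09 for genes without. Scaled by library size, the genes with a match stood at 14 higher and 76 lower with a median of -0.31, while those without turned to 22 higher and 35 lower with a median of -0.06. Among the 9485 tested genes that reach the same total, 3264 were called higher and 2618 lower, with a median of 0.06. In the 113 KRAB genes that share under 10% of their transcript 50-mers (runs of 50 bases) with other genes, the median was -0.05. Within clones a, b and c it was -0.01, -0.07 and -0.12. In the 34 KRAB genes that share 10% or more the median was -0.19. The 113 KRAB genes outside the largest clusters described below, on chromosomes 4 and 17, also had a median of -0.05. These are counts beside counts, and the difference between the groups has no test here.

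**Figure D1:**
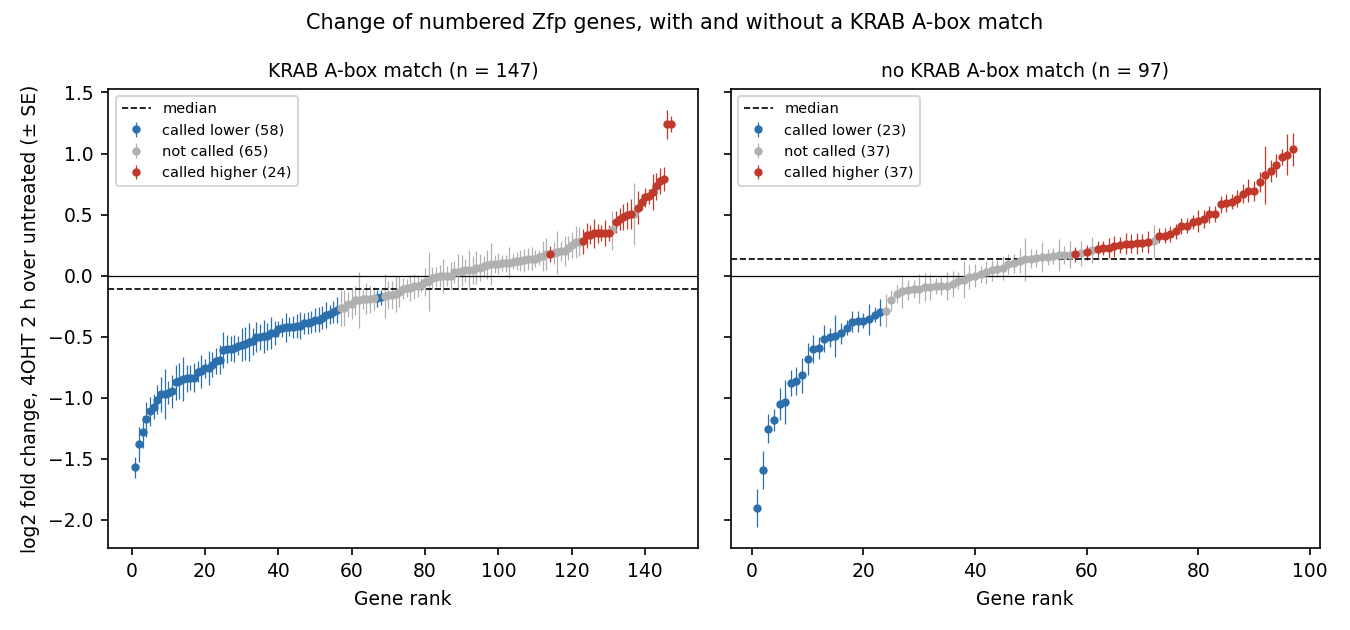
Each point is one numbered Zfp gene, ranked by its log2 fold change of 4OHT 2 h over untreated (vertical axis, bars ± SE, n = 3 libraries a group), with the 147 genes with a KRAB A-box match on the left and the 97 without on the right. Red and blue mark genes called higher and lower and the dashed line the median, which is below 0 for genes with a match (-0.11) and above 0 for those without (0.13), although library-size scaling takes the second median to -0.06.

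The KRAB genes held the 2 largest rises of the set. Zfp719 (chr7:43579610-43593235, GRCm38, as are all positions here), a KRAB gene with 13 fingers, had 101, 97.6 and 104 CPM in treated clones a, b and c, against 43.8, 41.2 and 42.9 CPM in untreated clones. Every treated library lay far above every untreated one, a rise of 1.24 ± 0.07 (adjusted p = 2.5e-07). Zfp948 (chr17:21567008-21588699), with 15 fingers, had 46.3, 50.9 and 46.03 CPM in treated clones, against 18.1, 18.5 and 24.3 CPM in untreated clones, again without overlap (1.24 ± 0.12, adjusted p = 1.3e-05). Other KRAB genes among the 12 largest rises were Zfp597 (0.79 ± 0.10), Zfp382 (0.77 ± 0.11) and Zfp93 (0.73 ± 0.11). The span of Zfp597 overlaps Naa60 and Zfp174 on the other strand, and 20.8% of the transcript 50-mers of Zfp93 also occur in another gene.

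The promoter windows of 5 KRAB genes are shown because these genes are the strongest movers or members of their clusters that moved the other way. They are RefSeq windows on GRCm38.p6 from 250 bases before to 50 bases after the annotated start, read in the direction of the gene. Zfp719 is at chr7:43579336-43579635 on the plus strand and Zfp948 at chr17:21566728-21567027 on the plus strand. Zfp820 is at chr17:21845710-21846009 on the minus strand, Zfp60 at chr7:27731159-27731458 on the plus strand and Zfp850 at chr7:28014066-28014365 on the minus strand. Capitals mark the NRF1 letters in Zfp719 and the ETS letters, as their reverse complement, in Zfp60.
Zfp719: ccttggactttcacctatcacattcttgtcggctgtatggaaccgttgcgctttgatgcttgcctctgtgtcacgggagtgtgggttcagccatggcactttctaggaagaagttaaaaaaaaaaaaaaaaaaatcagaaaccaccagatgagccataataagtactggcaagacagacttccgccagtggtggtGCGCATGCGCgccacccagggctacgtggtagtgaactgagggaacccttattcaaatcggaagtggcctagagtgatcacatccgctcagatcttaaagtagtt
Zfp948: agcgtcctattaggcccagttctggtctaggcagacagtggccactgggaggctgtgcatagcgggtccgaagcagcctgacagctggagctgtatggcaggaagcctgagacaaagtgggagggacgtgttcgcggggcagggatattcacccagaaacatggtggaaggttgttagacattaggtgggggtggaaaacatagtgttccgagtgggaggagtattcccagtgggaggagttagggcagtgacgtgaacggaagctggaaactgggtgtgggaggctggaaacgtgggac
Zfp820: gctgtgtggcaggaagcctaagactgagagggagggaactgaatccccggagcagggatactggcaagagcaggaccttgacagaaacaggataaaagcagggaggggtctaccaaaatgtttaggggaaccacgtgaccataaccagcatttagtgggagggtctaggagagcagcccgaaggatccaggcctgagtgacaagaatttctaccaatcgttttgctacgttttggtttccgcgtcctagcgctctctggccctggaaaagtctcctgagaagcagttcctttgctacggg
Zfp60: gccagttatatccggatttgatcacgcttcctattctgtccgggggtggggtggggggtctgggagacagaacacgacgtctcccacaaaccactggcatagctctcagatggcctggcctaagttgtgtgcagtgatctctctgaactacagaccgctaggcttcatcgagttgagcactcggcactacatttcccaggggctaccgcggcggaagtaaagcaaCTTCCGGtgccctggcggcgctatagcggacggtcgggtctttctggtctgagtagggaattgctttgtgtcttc
Zfp850: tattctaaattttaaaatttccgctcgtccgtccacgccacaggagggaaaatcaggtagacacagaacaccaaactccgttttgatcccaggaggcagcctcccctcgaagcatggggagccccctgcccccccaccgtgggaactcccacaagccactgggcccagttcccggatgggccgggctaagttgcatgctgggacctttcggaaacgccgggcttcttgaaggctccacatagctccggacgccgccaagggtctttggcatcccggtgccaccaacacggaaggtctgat

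Falls were led among KRAB genes by Zfp60 (chr7:27731389-27753702), which has 19 fingers. It had 27.98, 26.5 and 24.4 CPM in treated clones, against 84.6, 75.6 and 74.6 CPM in untreated clones. No libraries overlap, and the fall was -1.57 ± 0.09 (adjusted p = 2.9e-07). Zfp986 (-1.38 ± 0.14), Zfp113 (-1.28 ± 0.13), Zfp647 (-1.18 ± 0.14), Zfp383 (-1.11 ± 0.12) and Zfp820 (-1.07 ± 0.10) also fell, and their groups did not overlap either. Zfp986 is the least certain of them, because 86.4% of its transcript 50-mers occur in other genes, foremost Zfp988, and how such reads were counted is not given in the sources used here.

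**Figure D2:**
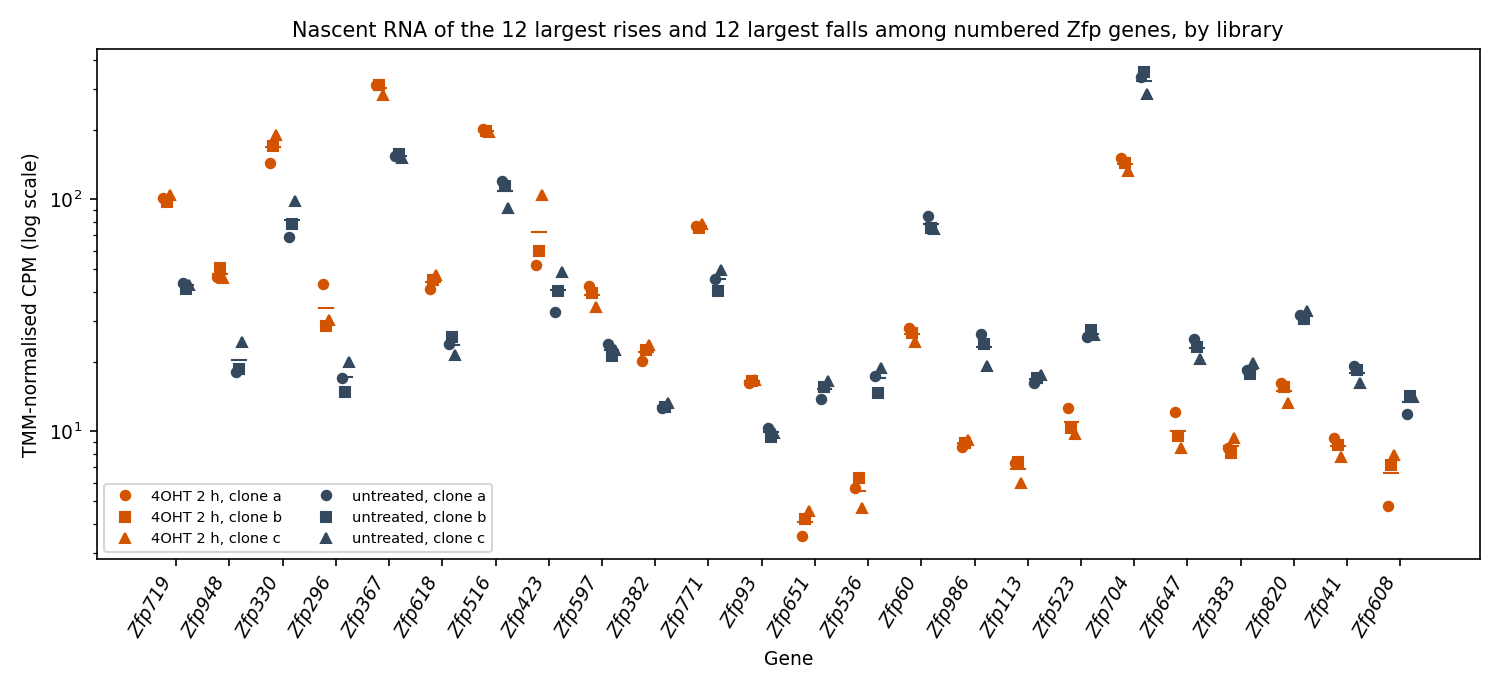
TMM-scaled CPM (log axis) of the 12 largest rises (left) and 12 largest falls (right) among called Zfp genes, with 4OHT libraries in orange left of untreated libraries in dark blue for each gene, clones a, b and c as circle, square and triangle, and the group mean as a bar. In all 24 genes the 3 treated libraries lie on one side of the 3 untreated ones, for example 24.4 to 27.98 CPM in treated clones against 74.6 to 84.6 CPM in untreated clones for Zfp60.

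Of the 244 genes, 101 lie in 13 genomic clusters, taken as runs of at least 4 of these genes with no gap over 500 kb, and 88 of the 101 have a KRAB match. In 6 clusters members were called in both directions, in 4 clusters every call was lower and in 3 every call was higher. With library-size scaling these numbers were 6, 6 and 1, with the clone block 7, 3 and 3, and with the block in DESeq2 5, 5 and 3. Without clone a or without clone b they were 5, 4 and 3, and 1 cluster had no call. KRAB genes in clusters (88) gave 12 calls higher (13.6%) and 35 lower (39.8%). KRAB genes outside them (59) gave 12 higher (20.3%) and 23 lower (38.98%). With library-size scaling the KRAB calls were 8 and 45 inside and 6 and 31 outside. With the clone block they were 19 and 38 inside and 15 and 26 outside. Of all tested genes that reach the total set for the Zfp genes, 34.4% were called higher and 27.6% lower. Whether the directions within clusters, here and below, differ from that background was not tested.

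The largest clusters, with 17 members each, lie on chromosomes 17 and 4. On chr17:21008903-23599487, 9 of 17 were called lower, among them Zfp820 and Zfp946 (-1.01 ± 0.12), while Zfp948 was called higher. The clone block gave 10 lower and 2 higher, Zfp229 being the second. Zfp820 had 16.1, 15.6 and 13.3 CPM in treated clones, against 31.7, 30.5 and 33.03 CPM in untreated clones. Its groups did not overlap, and those of Zfp948 in the same cluster were split the other way. On chr4:145510759-147848366, 9 of 17 were called lower and the other 8 were not called, and the clone block gave 11 lower and 1 higher. Zfp988 (-0.97 ± 0.14) and Zfp985 (-0.84 ± 0.11) were among the falls. However, every member of this cluster except Zfp933 shares at least 10% of its transcript 50-mers with other genes. How shared reads were counted is not given in the sources used here, so the changes of these members cannot be taken as independent readings.

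Members of one cluster on chromosome 7 could be called in opposite directions. In chr7:27731389-28014115, Zfp60 fell by 1.57 while Zfp850, at the other end of the cluster, had 117, 117 and 113 CPM in treated clones, against 73.7, 72.2 and 75.9 CPM in untreated clones. That is a rise of 0.65 ± 0.06 (adjusted p = 1.1e-05) with no overlap. In chr7:29768552-30169750, Zfp383 averaged 8.62 ± 0.670 CPM in treated clones and 18.6 ± 1.05 CPM in untreated clones, while Zfp382 averaged 22.01 ± 1.74 CPM in treated clones and 12.9 ± 0.335 CPM in untreated clones. Zfp568 of the same cluster also fell. In chr7:42473386-43618285, 3 of 8 members were called higher, Zfp719, Zfp715 (0.46 ± 0.09) and Zfp936, and the other 5 were not called, while the clone block called 5 higher. Zfp936 was at the threshold (0.18 ± 0.07, adjusted p = 0.0499), turned to -0.02 under library-size scaling and was not called without clone a or clone b (adjusted p = 0.13 and 0.30).

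The remaining clusters were smaller. In chr6:47835661-48086593, 4 of 6 members fell, led by Zfp777 (-0.84 ± 0.10). Zfp459, Zfp738 and Zfp65 fell in the 4-member cluster chr13:67405709-67729173, and Zfp799 (-0.76 ± 0.08) and Zfp870 (-0.73 ± 0.10) fell in chr17:32765496-33631779, where Zfp871 rose by 0.35 ± 0.07. That cluster had 2 calls higher and 3 lower, or 4 and 3 with the clone block. Zfp180, Zfp93 and Zfp428 rose in chr7:24081924-24515682, and Zfp553 (0.58 ± 0.07) and Zfp771 (0.77 ± 0.08) rose in chr7:127233061-127885996. With both libraries of clone b left out, the chromosome 6 cluster had 1 of its 4 calls left, Zfp777, as Zfp282 and Zfp398 reached adjusted p = 0.055 and 0.079 and Zfp956 was not called either. The chromosome 13 cluster had 1 of its 3 left without clone b, Zfp65, since Zfp459 and Zfp738 were no longer called (adjusted p = 0.11 and 0.068). Under library-size scaling the rises of Zfp871 and Zfp428 were no longer called (adjusted p = 0.096 and 0.12).

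**Figure D3:**
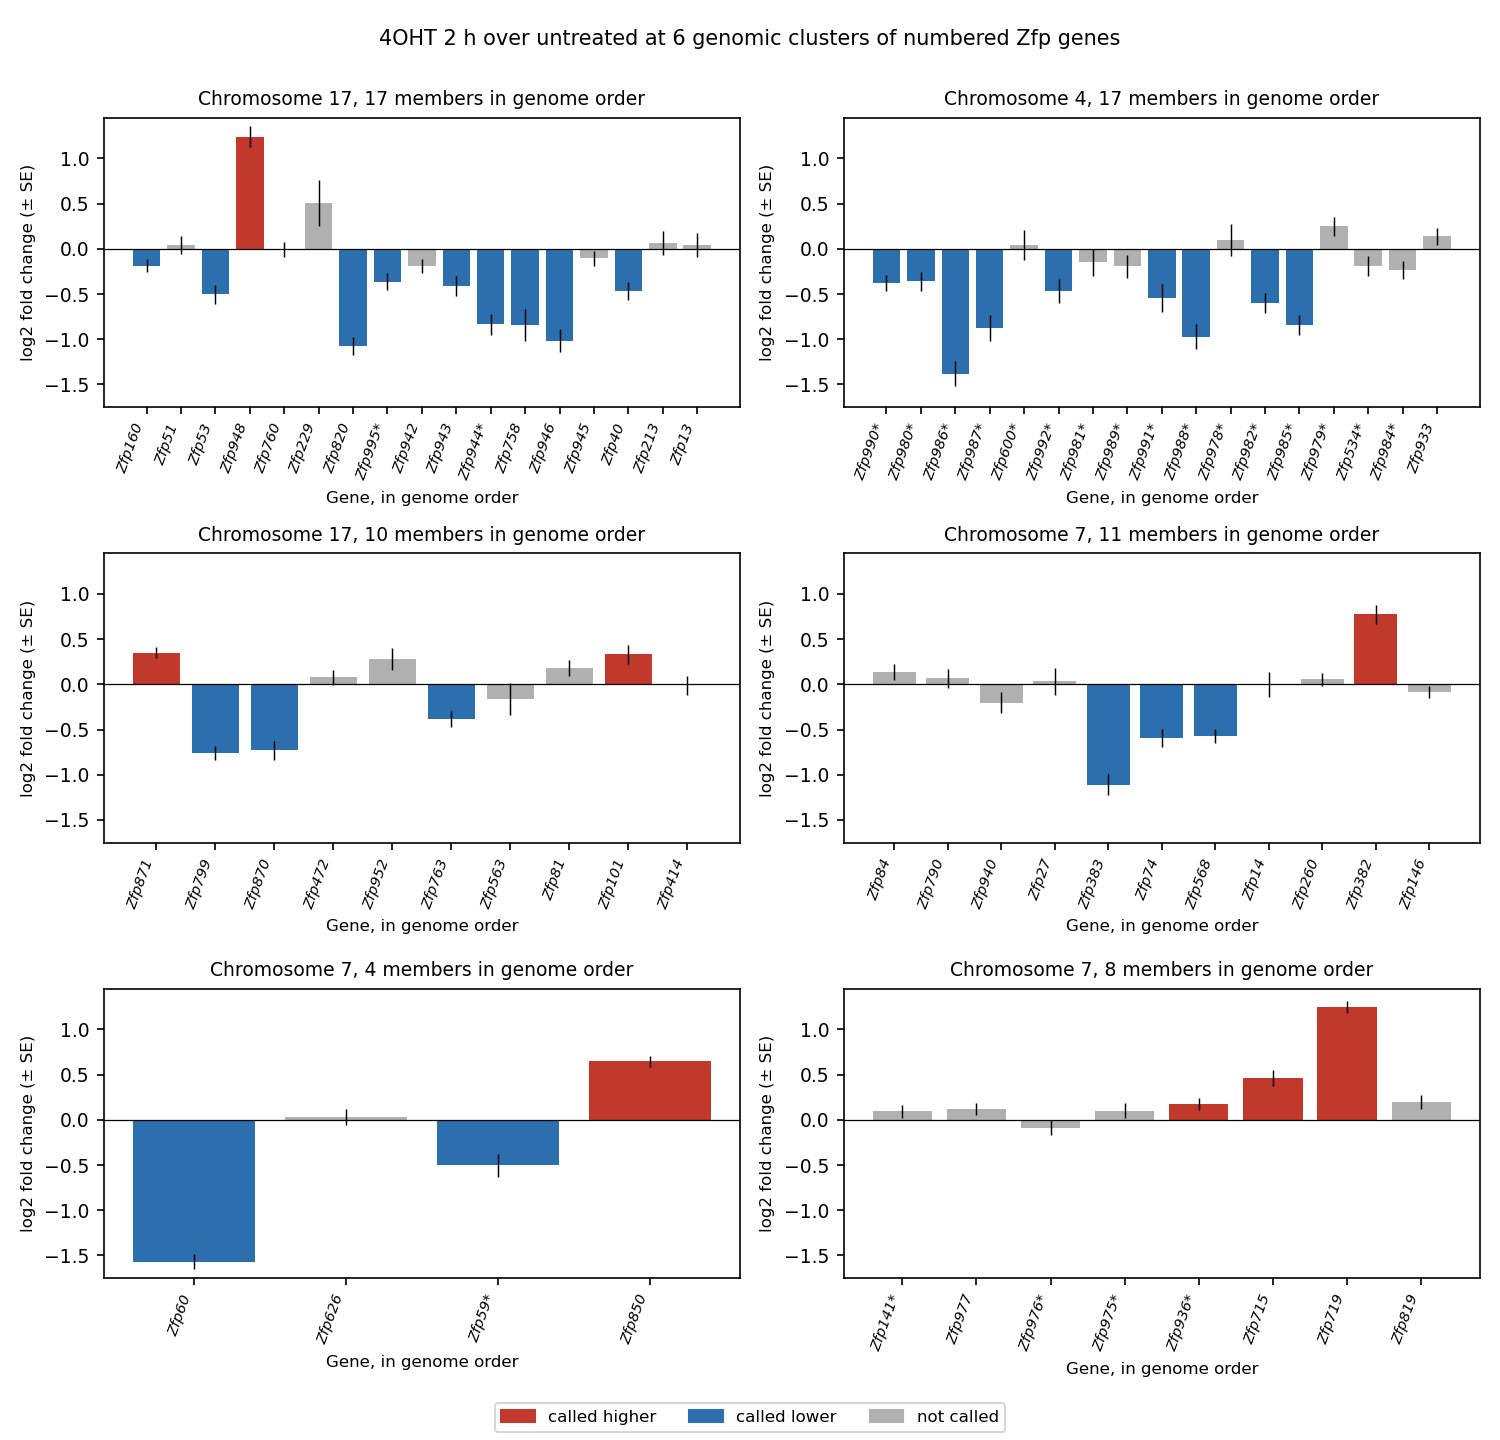
Log2 fold change of 4OHT 2 h over untreated (bars, ± SE, n = 3 libraries a group) for each numbered Zfp gene in 6 of the 13 clusters, in genome order and on one scale. Red and blue are genes called higher and lower, grey not called, and a star marks genes that share at least 10% of their transcript 50-mers with another gene; the chromosome 17 cluster of 17 shows the rise of Zfp948 beside 9 falls.

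The KRAB genes best known for silencing were listed as 6 members. Zfp57, which keeps DNA methylation at imprinted control regions in embryonic stem cells, had 255, 187 and 179 CPM in treated clones a, b and c, against 163, 126 and 133 CPM in untreated clones. Each treated clone was above every untreated one, with clone a highest in both groups, and the rise was 0.56 ± 0.14 (adjusted p = 0.0056). Leaving out treated clone a gave a rise of 0.38. Zfp445, which shares the work at imprinted regions, averaged 136 ± 8.23 CPM in treated clones and 107 ± 9.30 CPM in untreated clones (0.35 ± 0.08, adjusted p = 0.0038, and 0.14 with adjusted p = 0.17 under library-size scaling). Zfp568, which represses a placental transcript of Igf2, went the other way, with 256, 256 and 219.8 CPM in treated clones, against 384, 358 and 346 CPM in untreated clones. All its treated values lay below all its untreated ones (-0.57 ± 0.08, adjusted p = 0.00014).

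The other 3 of this list were not called. Zfp809, which silences retroviruses through their primer-binding site, averaged 54.5 ± 6.44 CPM in treated clones and 52.9 ± 6.86 CPM in untreated clones (0.05 ± 0.11, -0.16 under library-size scaling). Zfp932, which binds endogenous retroviruses, averaged 20.3 ± 2.00 CPM in treated clones and 21.8 ± 1.31 CPM in untreated clones (-0.10 ± 0.11). Zfp819 was at 46.5 ± 2.29 CPM in treated clones and 40.5 ± 2.66 CPM in untreated clones (adjusted p = 0.057, 0.016 with the clone block, and a change of -0.00018 under library-size scaling). Of the whole list, 33.3% were called higher and 16.7% lower. Of all tested genes that reach the total set for the Zfp genes, 34.4% were called higher and 27.6% lower. The list's median total of 5162 counts lies in the highest range of total count. In that range 49.5% of all tested genes were called higher and 18.6% lower. Whether the list differs from these backgrounds was not tested. With library-size scaling the list had 1 call higher and 2 lower, and its median of 0.12 turned to -0.08.

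Of 20 members listed as promoter and chromatin factors, 12 were called higher and 2 lower, with a median of 0.20. Over all tested genes 28.5% were called higher, and 49.5% were in the highest range of total count, where the list's median total of 6450 counts lies. Library-size scaling left 6 higher and 4 lower with a median of 0.004, and leaving out clone a or clone b left 6 higher. Zfp296, a pluripotency-associated factor, had 43.1, 28.6 and 30.3 CPM in treated clones, against 17.1, 14.8 and 19.9 CPM in untreated clones. The groups did not overlap, and the rise was 0.99 ± 0.17 (adjusted p = 0.00060). Its span overlaps Gemin7 on the other strand.

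Zfp618, which in human cells partners UHRF2 on hydroxymethylated DNA, rose by 0.90 ± 0.10, to 44.3 ± 3.06 CPM in treated clones, against 23.6 ± 2.12 CPM in untreated clones. Zfp131, a BTB-domain factor, averaged 141 ± 13.5 CPM in treated clones and 87.4 ± 4.00 CPM in untreated clones (0.69 ± 0.08). Zfp592 (0.47 ± 0.07), found with ZMYND8 in human cells, and Zfp384 (0.44 ± 0.06), a factor fused to other genes in human leukaemia, rose less. The falls were in Zfp608 (-1.03 ± 0.18) and Zfp341 (-0.36 ± 0.13).

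Zfp143, which binds promoters genome-wide, averaged 75.5 ± 3.11 CPM in treated clones and 68.4 ± 3.80 CPM in untreated clones and was not called (adjusted p = 0.10, 0.036 with the clone block, and -0.05 under library-size scaling). Zfp523, which is not on the list and is the mouse counterpart of human ZNF76 and a paralogue of Zfp143, fell to 10.95 ± 1.52 CPM in treated clones, against 26.3 ± 0.940 CPM in untreated clones (-1.25 ± 0.12, adjusted p = 1.2e-05). Zfp462, which restrains differentiation genes in embryonic stem cells, stood at 247 ± 18.6 CPM in treated clones and 266 ± 16.1 CPM in untreated clones. It was not called (adjusted p = 0.24), although it was with the clone block (0.029) and with library-size scaling (0.0070), lower in both. Zfp91, known in human cells as a ubiquitin ligase and among the 5 deepest members, rose by 0.25 ± 0.07. That call was lost under library-size scaling (0.05, adjusted p = 0.56) and without clone a or clone b (adjusted p = 0.10 and 0.099), and its span overlaps Cntf.

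Of 10 members with roles in RNA, ribosomes or the spindle, 5 were called higher (4 with library-size scaling) and the other 5 were not called. The list's median total of 6445.5 counts lies in the highest range of total count. In that range 49.5% of all tested genes were called higher and 18.6% lower, so the list's 50% called higher is close to that background. Zfp207, a spindle-assembly protein that binds BUB3 and the deepest member with 23149 counts, had 489.8, 486 and 437 CPM in treated clones, against 330.5, 339.6 and 328 CPM in untreated clones. Its groups lay far apart (0.50 ± 0.07, adjusted p = 0.00012). Zfp330, a nucleolar protein in whose sequence the C2H2 pattern found no finger, had 143, 170.5 and 189.5 CPM in treated clones, against 68.9, 78.1 and 98.8 CPM in untreated clones. Clone c was highest in both groups, every treated library was above every untreated one, and the rise was 1.04 ± 0.13 (adjusted p = 0.00010).

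Zfp326, which in human cells links elongation to splicing, rose by 0.61 ± 0.06, and Zfp622, a ribosome maturation factor, by 0.36 ± 0.06. Zfp598, the ubiquitin ligase of collided ribosomes, averaged 73.5 ± 4.43 CPM in treated clones and 61.3 ± 3.44 CPM in untreated clones (0.26 ± 0.07, adjusted p = 0.012). Its call was lost under library-size scaling (adjusted p = 0.50) and without clone a or clone b (adjusted p = 0.068 and 0.070). Zfp638, an RNA-binding protein, averaged 382 ± 43.97 CPM in treated clones and 366 ± 33.4 CPM in untreated clones and was not called (0.06 ± 0.10, -0.14 under library-size scaling).

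Of 11 members listed for development, 5 were called higher (45.5%) and 4 lower (36.4%), or 4 and 5 with library-size scaling. All tested genes in the range of the list's median total of 3097 counts (2156.5 to 4326) stood at 32.3% higher and 27.5% lower. Zfp704 (chr3:9427020-9610085) had 151, 144 and 133 CPM in treated clones, against 337, 353 and 284 CPM in untreated clones. The highest treated library was well below the lowest untreated one, and the fall was -1.19 ± 0.09 (adjusted p = 2.7e-06). Zfp536, which holds back neuronal differentiation, fell by 1.59, to 5.57 ± 0.826 CPM in treated clones, against 16.95 ± 2.12 CPM in untreated clones. The spans of Zfp704 and Zfp536 overlap non-coding or predicted genes.

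Zfp516, a factor of brown fat, averaged 198 ± 2.80 CPM in treated clones and 109 ± 14.97 CPM in untreated clones (0.86 ± 0.09). Zfp335, a chromatin factor needed in neural progenitors, averaged 80.3 ± 1.38 CPM in treated clones and 51.8 ± 3.10 CPM in untreated clones (0.63 ± 0.07). Zfp423, which acts in cerebellar and fat precursors, had 52.2, 60.01 and 105 CPM in treated clones a, b and c, against 32.9, 40.2 and 48.9 CPM in untreated clones. Treated clone c stood well above the rest, and although the groups did not overlap, the rise of 0.82 ± 0.23 (adjusted p = 0.012) was 0.47 without that library, and was not called without clone b (adjusted p = 0.055).

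Also outside these lists, Zfp651 (chr9:121759330-121771742), with no KRAB match and 9 fingers, had the largest fall. It had 3.54, 4.21 and 4.53 CPM in treated clones, against 13.9, 15.5 and 16.5 CPM in untreated clones. The groups lay far apart (-1.90 ± 0.15, adjusted p = 4.2e-06), on 641 counts in all, and the span overlaps a predicted gene on the other strand. Zfp367 (chr13:64133018-64153202), also without a KRAB match, had 311, 312 and 282 CPM in treated clones, against 154, 157 and 152 CPM in untreated clones. Its groups lay far apart with little spread inside either (0.97 ± 0.06, adjusted p = 1.1e-06). Zfp41, a gene with 4 fingers, averaged 8.63 ± 0.821 CPM in treated clones and 17.9 ± 1.56 CPM in untreated clones (-1.05 ± 0.13).

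Calls also differed with depth. The genes were divided into 4 equal bins of total count. In the lowest bin (608 to 1167.5 counts), 5 of 45 KRAB genes were called higher and 22 lower, and 7 of 16 genes without a KRAB match were lower and 9 not called. In the highest bin (4326 to 23149 counts), 8 of 24 KRAB genes were called higher and 6 lower, and 22 of 37 without a match were higher and 5 lower. All tested genes shifted the same way, with 338 higher and 664 lower of 1755 in the lowest range and 1707 higher and 643 lower of 3448 in the highest. With library-size scaling, the lowest bin read 4 higher and 26 lower for KRAB genes and 10 lower for the others, and the highest bin 3 higher and 9 lower for KRAB genes and 14 higher and 8 lower for the others. The KRAB genes were the shallower group, with a median total of 1800 counts against 3290 for genes without a match, and the part of depth in the split between them was not tested beyond these counts. The middle bins ran in opposite ways. Within the second bin (1167.5 to 2156.5 counts) 6 of 44 KRAB genes were higher and 15 lower (34.1% lower, median -0.07), and 3 of 17 without a match were higher and 10 lower (58.8% lower, median -0.37). Within the third bin (2156.5 to 4326 counts) 5 of 34 KRAB genes were higher and 15 lower, whereas 12 of 27 without a match were higher and 1 lower. With library-size scaling the second bin read 3 higher and 22 lower for KRAB genes and 3 higher and 11 lower for the others, and the third bin 4 higher and 19 lower for KRAB genes and 5 higher and 6 lower for the others. The clone block moved the KRAB genes of the highest bin to 13 higher, and for genes without a match gave 1 higher in the lowest bin and 2 lower in the third.

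**Figure D4:**
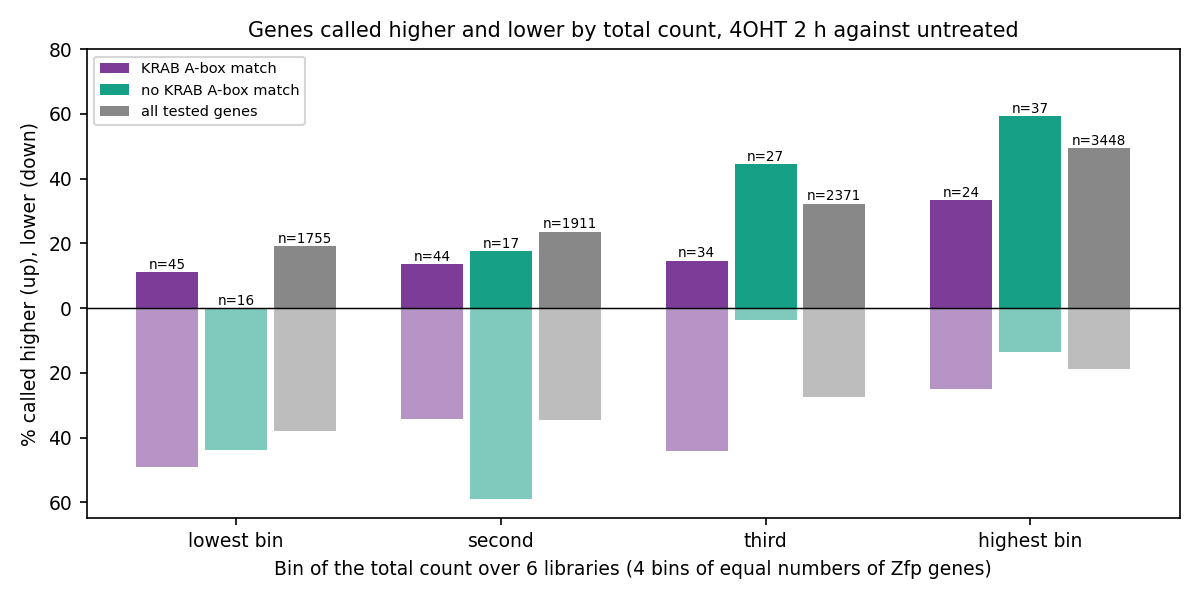
Percentage of genes called higher (upward bars) and lower (downward, paler bars) after 4OHT 2 h against untreated, by bin of the summed count, for Zfp genes with a KRAB match (purple), without one (green) and all tested genes (grey), with n above each bar. The share called higher is greatest in the highest bin for all 3 sets, at 33.3%, 59.5% and 49.5%, in the order KRAB match, no match and all tested genes.

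Extensive shared sequence was found in KRAB genes alone. All 34 genes that share at least 10% of their transcript 50-mers with another gene have a KRAB match. Of these 34, 3 were called higher and 15 lower, and of the 113 KRAB genes below that limit 21 were called higher and 43 lower (2 and 23, and 12 and 53, with library-size scaling). By finger number, genes with 0 to 4 stood at 13 higher and 12 lower of 38, those with 5 to 9 at 18 higher and 21 lower of 63, those with 10 to 14 at 20 higher and 32 lower of 92, and those with 15 or more at 10 higher and 16 lower of 51. Under library-size scaling these were 7 and 12, 11 and 26, 11 and 47, and 7 and 26. Over all tested genes that reach the total of 600, 34.4% were higher and 27.6% lower.

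Clones differed beside the treatment. A joint test of the clone terms called 35 of the 244 Zfp genes, a share close to the 12.6% of all tested genes that were called. Of the 35, 18 were also called for treatment. The clearest was Zfp229, a KRAB gene in the chromosome 17 cluster, with 167, 133 and 76.3 CPM in treated clones a, b and c, against 112, 88.4 and 64.7 CPM in untreated clones. Clone a was above b and b above c in both groups (clone c against a -0.96, adjusted p = 8.4e-07). Its change of 0.51 ± 0.25 was not called (adjusted p = 0.11), while with clone as a block it was called higher (adjusted p = 7.8e-07). Zfp423 ran in the other direction, highest in clone c in both groups (0.80 against clone a), and Zfp57 was highest in clone a in both groups (-0.40 for clone c against a).

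**Figure D5:**
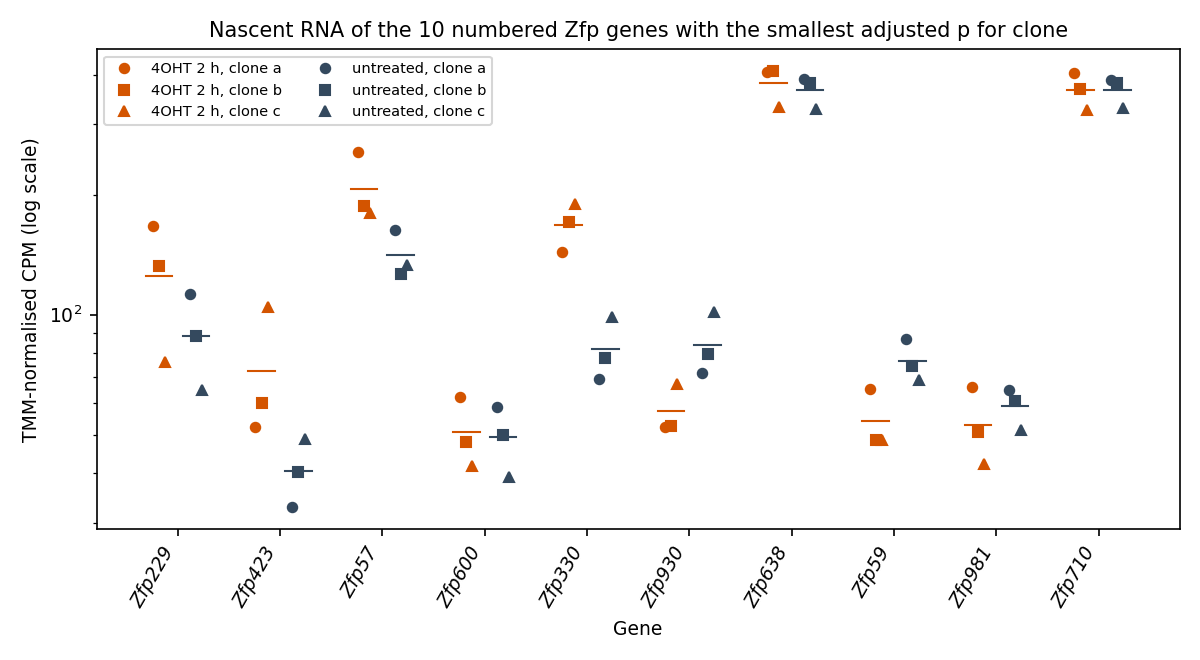
TMM-scaled CPM (log axis) in each library for the 10 numbered Zfp genes with the smallest adjusted p for a difference between clones, with 4OHT libraries in orange left of untreated libraries in dark blue, clones a, b and c as circle, square and triangle, and bars at the group means. The clone order repeats in both groups for Zfp229, at 167, 133 and 76.3 CPM in treated clones a, b and c and 112, 88.4 and 64.7 CPM in untreated clones.

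Per kilobase of exon, the highest treated level in the set was that of Zfp936, a KRAB gene, at 73.5 CPM per kb in treated clones and 65.0 in untreated clones. Zfp207 followed in treated clones at 70.7 CPM per kb, against 49.96 in untreated clones. Whether introns were counted is not stated, so these are levels per exon length and not molar amounts.

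The partners through which KRAB boxes act were listed as 28 genes, of which 10 were called higher (35.7%) and 7 lower (25%), with a median of 0.04. All tested genes that reach the total of 600 stood at 34.4% higher and 27.6% lower. The list is deeper, with a median total of 10418 counts. In the range of total count above 4326, 49.5% of all tested genes were called higher and 18.6% lower. Beside that range the list had a smaller share called higher and a larger share called lower, a difference without a test. Trim28, the scaffold, averaged 417 ± 23.4 CPM in treated clones and 483 ± 6.22 CPM in untreated clones (-0.21 ± 0.06, adjusted p = 0.017). Setdb1, the methyltransferase, averaged 127 ± 4.46 CPM in treated clones and 111 ± 4.81 CPM in untreated clones (0.20 ± 0.06, adjusted p = 0.022, but -0.004 under library-size scaling). Without clone a or clone b neither was called (adjusted p = 0.077 and 0.15 for Trim28, and 0.094 and 0.19 for Setdb1). Larger rises were in the NuRD subunits Chd3 (1.83 ± 0.18), Rbbp7 (1.12 ± 0.06) and Chd4 (1.06 ± 0.07) and in the histone-variant remodeller Atrx (1.21 ± 0.12). Of the other NuRD subunits listed, Rbbp4 also rose (0.40 ± 0.06), Mta1 fell (-0.27 ± 0.06, adjusted p = 0.0030), and Mta2 (-0.00 ± 0.08), Hdac1 (0.08 ± 0.07) and Hdac2 (0.03 ± 0.07) were not called. The remaining genes called higher were Pphln1 (0.71 ± 0.08), Uhrf1 (0.50 ± 0.08), Dnmt1 (0.49 ± 0.07) and Fam208a (0.23 ± 0.07). Under library-size scaling Fam208a was no longer called (0.03, adjusted p = 0.76). Besides Trim28 and Mta1, the genes called lower were Dnmt3l (-0.52 ± 0.10), Ehmt2 (-0.32 ± 0.09), Cbx3 (-0.25 ± 0.06), Atf7ip (-0.23 ± 0.07) and Ehmt1 (-0.18 ± 0.06). Library-size scaling gave 8 higher and 12 lower and a median of -0.15, and without clone b 1 was called lower.

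Promoter letters were read in the RefSeq windows of 187 Zfp genes whose RefSeq start lies within 1000 bases of the annotated start, and of 9610 tested genes in all. The motifs, searched on both strands, were the ETS letters CCGGAAG, the GC box GGGCGG, the AP-1 letters TGANTCA, the CRE letters TGACGTCA, the EGR letters GCGGGGGCG, the YY1 letters AAGATGG, the TATA letters TATAAA, the ZFP57 letters TGCCGC and the NRF1 palindrome. Motifs can run into one another, as ETS into YY1, and each was counted alone. The GC box was in 44 of 115 KRAB windows (38.3%) and 45 of 72 windows without a KRAB match (62.5%), beside 65.6% of all windows. The median window held 11 CpG in KRAB genes, 20 in the others and 21 in all tested genes.

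The ETS letters stood in 14 of 43 windows of KRAB genes called lower (32.6%), Zfp60 among them, in 2 of 20 of KRAB genes called higher (10%) and in 10 of 52 of KRAB genes not called (19.2%), beside 17.98% of all windows. In genes without a KRAB match the order was the other way, with 0 of 15 windows of genes called lower, 6 of 28 called higher (21.4%) and 6 of 29 not called (20.7%). ETS was 1 of 9 motifs searched, and no split by call was tested. Without a KRAB match, the ZFP57 letters were in 7 of 15 windows called lower and 8 of 28 called higher. The YY1 letters were in 4 of 15 and 2 of 28. In KRAB genes the ZFP57 letters were in 3 of 43 called lower and 2 of 20 called higher, and YY1 in 3 and 1. The AP-1 letters were in 5 of 187 Zfp windows (2.67%) and in 4.64% of all. Of the windows printed above, Zfp719 holds the NRF1 letters, Zfp60 the ETS letters, and Zfp948, Zfp820 and Zfp850 none of the 9 motifs. A match is a description of the letters, and no binding was measured here.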

How the data were processed

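The deposited values are raw counts, which the authors made for each gene symbol in all 6 libraries and did not normalize. Per the labels' protocols, labelled RNA was captured with click chemistry after DNase treatment. Per the submitters' processing notes, STAR, featureCounts and mm10 were used. Versions, strand setting and counted features stand in none of the sources used here. The filterByExpr function (count 10, total 15) removed shallow genes, and counts were scaled by TMM and tested with edgeR 4.0.16 in R 4.3.3 without a clone term. Alternatives used DESeq2 1.42.0, limma 3.58.1 (voom) and the settings of the closing section. The main fit was also run on simulated counts of 13685 genes, with 100 changed by a log2 of 0.5 and 100 by 1. It recovered 54.1% and 81.8% of these, and 6.94% of its calls were false. Far fewer genes changed there than were called in the real data, so these rates need not hold for them. Clones served as replicates, and with no source on separate cultures the p-values cover only the spread among these libraries. Libraries of one clone deviated together (correlations 0.282, 0.165 and 0.357 for clones a, b and c), and the labels name the same clones in both groups, so the letters pair them. All 244 symbols matched GENCODE M21 once. KRAB boxes were found in its translated reading frames with a profile of 116 seed sequences (pyhmmer 0.12.3, E value 0.001). Members and lists were chosen with earlier results of these data known. Named genes are the 12 largest rises and 12 largest falls among called genes with 1 direction in 3 clones, the 5 deepest, up to 4 per role list and 3 per cluster with the smallest adjusted p, the 3 genes on each side of the total, preset genes such as Zfp57 and Zfp143, and of the corepressors Trim28, Setdb1 and up to 6 others. Zfp229, Zfp932, Zfp933, Zfp341, Zfp956, Twist1, Col1a1, Col5a2, Pdgfrb and the further corepressors were named after their values were seen.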

Additional observations from a re-analysis of the deposited data

How the results depend on the processing

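Of 82 named genes, 76 kept their direction and call under DESeq2, 82 under limma-voom, 80 with DESeq2 size factors, 79 with no filter on low counts and 81 with a CPM filter of 1. With library size 66 did, and it gave 36 Zfp genes higher and a median of -0.208. KRAB genes higher came to 14, genes without a KRAB match to 22 higher and 35 lower, the imprint and transposon list to 1 higher and 2 lower, promoter and chromatin factors to 6 higher and 4 lower, and corepressors lower to 12. A log2 fold change of at least 1 left 3 Zfp genes higher and 13 lower. By group that was 2 and 7 with a KRAB match, 1 and 6 without, 4 and 0 corepressors, 0 and 0 of the imprint list, 1 higher of the RNA list, 0 and 1 promoter factors and 0 and 2 development genes. An adjusted p of 0.01 left 3 corepressors and 1 promoter factor lower and 20 clone differences. A total of 300 moved the median to -0.087, and a total of 1200 to 0.046 with 52 genes lower.

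The replicate block, with the clone letters as pairs, gave 79 Zfp genes higher and 91 lower and ended no call. It moved calls higher by over 1.5 times in 4 clusters, to 4 in chr17:32765496-33631779, 2 in chr17:21008903-23599487, 5 in chr7:42473386-43618285 and 1 in the chromosome 4 cluster, and likewise to 19 in KRAB genes within clusters and 13 in KRAB genes of the highest bin. The block in DESeq2 gave 61 and 77, lost 9 of the 142 calls, those of Zfp446, Zfp329 and Zfp266 among the named genes, and called none of Zfp143, Zfp462, Zfp819 and Zfp668, which the block in edgeR did call. Leaving out each library or clone gave 40 to 71 higher and 59 to 89 lower, with a median of -0.044 to -0.00080. The 40 came without clone b, which lost 43 of the 142 calls. Ranges were 17 to 30 and 40 to 63 with a KRAB match, 23 to 41 and 19 to 26 without, 8 to 11 and 1 to 8 for corepressors (1 without clone b), and 6 to 13 (6 without clone a or b) and 1 to 3 for promoter factors. The RNA list gave 4 to 7 higher, development 4 to 5 and 3 to 5, and the imprint list 2 and 1 throughout.

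Directions turned only in genes with changes near 0. Under library size these were Zfp638 (-0.14), Zfp809 (-0.16), Zfp143 (-0.055), Zfp936 (-0.023), Zfp668 (-0.017), Zfp819 (-0.00018) and Setdb1 (-0.0042). With 1 library or clone left out, Zfp638 ranged from -0.028 (without untreated clone c) to 0.16, Zfp809 from -0.053 (without treated clone a) to 0.16, and Zfp710 from -0.087 to 0.081. Zfp710 read 0.00013 with DESeq2 size factors, 0.00023 with the CPM filter and 6.0e-05 with DESeq2. The cause of these shifts was not tested. Depth limits the shallowest genes most, and 16 of 17 members of the chromosome 4 cluster share 11.89% to 89.0% of their transcript 50-mers with other genes.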
